A study of Mus musculus with 16 samples.

Results

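Keratins were followed here through 7 genes, the simple epithelial keratins Krt7, Krt8, Krt18, Krt19 and Krt20 and the basal keratins Krt5 and Krt14. They were chosen by name, and all probe sets annotated to 1 of these symbols alone were taken, which gave 11 of the 22626 probe sets tested and 7 of the 12393 genes with at least 1 such probe set. Krt8 and Krt14 each have 3 probe sets and the other genes have 1. RNA levels were measured in 16 tumors of p53R172H∆g/+ K-rasLA1/+ mice, which carry a p53 missense mutation and a latent oncogenic K-ras allele that is activated by recombination in single cells. The 9 metastases came from mice 1 to 4 (3, 1, 3 and 2 metastases in that order of mice) and lay in the liver, heart, mediastinal lymph nodes, parietal pleura and at subcutaneous or inguinal sites. The 7 primary lung adenocarcinomas came from mice 1 to 7, so that 4 of them are matched to metastases and those of mice 5, 6 and 7 are not. By the labels mouse 6 was the 1 female and the other 6 mice were male. No group without these alleles and no normal lung was analysed here, and the labels give no ages. RNA came from whole dissected tumors, in which fewer cells of a type and less RNA per cell cannot be told apart.

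Keratins are the intermediate filament proteins of epithelial cells. A filament needs 1 type I and 1 type II keratin, and the partners are usually made in the same cells. Krt8 (type II) and Krt18 (type I) are the first pair made in the embryo and the common pair of single-layered epithelia, including that of the lung. Krt7 is a further type II keratin of simple and ductal epithelia, Krt19 is a short type I keratin of simple and ductal epithelia, and Krt20 is a type I keratin best known from the gut lining. Krt5 (type II) and Krt14 (type I) form the pair of the basal layer of skin and of other layered epithelia, and in the airway they mark basal cells. In human pathology, antibodies to KRT7 and KRT20 are used together to judge where an adenocarcinoma arose, and most of those arising in the lung stain for KRT7 and not for KRT20.

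On the mouse genome (GRCm38.p6, RefSeq) the type I genes Krt20, Krt19 and Krt14 lie on chromosome 11 and the type II genes Krt7, Krt5 and Krt8 on chromosome 15. Krt18 is the exception, a type I gene that lies beside Krt8 on chromosome 15. Krt8 is on the minus strand and Krt18 on the plus strand, and 23873 bases lie between their start sites. RefSeq promoter windows (250 bases before to 50 after the annotated start) were found for 6 of the 7 genes. Those of Krt8 and Krt18 are shown because the levels of this pair moved together. That of Krt7 is shown because its ratio of metastasis to primary tumor lay below theirs. The windows were searched on both strands for TGANTCA (bound by AP-1), GGGCGG (by Sp1), TATAAA (by the general factor TFIID) and CCGGAA (by ETS factors), and matches are in capitals.
Krt7, chr15:101412153-101412452, plus strand: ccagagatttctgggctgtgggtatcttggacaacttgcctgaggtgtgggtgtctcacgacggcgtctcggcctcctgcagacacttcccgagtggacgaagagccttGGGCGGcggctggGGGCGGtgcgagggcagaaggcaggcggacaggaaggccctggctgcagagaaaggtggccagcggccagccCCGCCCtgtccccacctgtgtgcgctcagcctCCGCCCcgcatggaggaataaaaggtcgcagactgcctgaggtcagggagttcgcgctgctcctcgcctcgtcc
Krt8, chr15:102004293-102004592, minus strand: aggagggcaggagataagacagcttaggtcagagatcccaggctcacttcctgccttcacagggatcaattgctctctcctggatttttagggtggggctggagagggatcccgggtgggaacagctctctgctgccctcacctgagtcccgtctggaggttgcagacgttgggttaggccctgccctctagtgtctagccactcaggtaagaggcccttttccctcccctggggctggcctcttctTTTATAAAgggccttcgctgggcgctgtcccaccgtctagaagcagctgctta
Krt18, chr15:102027966-102028265, plus strand: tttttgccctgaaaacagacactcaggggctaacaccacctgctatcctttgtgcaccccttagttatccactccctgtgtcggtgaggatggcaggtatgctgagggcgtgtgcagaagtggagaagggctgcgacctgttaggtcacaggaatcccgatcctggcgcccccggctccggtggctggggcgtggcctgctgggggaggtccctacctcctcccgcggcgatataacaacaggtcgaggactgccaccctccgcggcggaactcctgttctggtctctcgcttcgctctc
The Krt7 window held 4 matches to GGGCGG, starting 141, 128, 56 and 24 bases before the start site, and none of the other motifs. The Krt8 window held TATAAA in 2 overlapping matches on opposite strands, 3 and 1 bases before the annotated start, and the Krt18 window held none of the 4 motifs. Of all 32851 promoter windows, 35.7% held GGGCGG, 13.6% TATAAA, 14.9% CCGGAA and 7.81% TGANTCA. A match to so short a motif describes the letters only.

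The deposited values are intensities in arbitrary units on a linear scale, and 25% of all values in the table were under 24.3. Array medians lay between 75 and 85.5, and correlations between arrays between 0.900 and 0.969. Values under 1 were raised to 1 before log2 was taken. A log2 difference of 1 unit is a doubling, and differences are given as metastasis minus primary tumor. They were fitted with limma across all probe sets, first over the 13 tumors of mice 1 to 4 with the mouse as a block, then over all 16 tumors with the mouse as a random block. Metastases of 1 mouse share their primary tumor and are separate samples of 4 animals, so the p-values measure the spread between tumors more than that between animals. An intensity depends on the probes as well as on the transcript, so differences were taken between tumors at the same probe set. Summed intensities of gene lists are descriptions in which bright probe sets weigh most.

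Krt7 was lower in each of the 9 metastases than in the primary tumor of the same mouse, but the difference did not pass the test over all probe sets. Its intensity was 841, 941 and 335 in the inguinal, liver and subcutaneous metastases of mouse 1 and 318 in the liver metastasis of mouse 2. It was 93.6, 769 and 800.3 in the heart, lymph node and subcutaneous metastases of mouse 3, and 484 and 612 in the nodal and pleural metastases of mouse 4. The primary tumors of mice 1 to 4 were at 1166, 1328, 1122 and 1508. All 9 metastases lay under all 4 matched primary tumors, which was true of 0.791% of all probe sets and of 1 of the 11 keratin probe sets. The primary tumors of mice 5, 6 and 7 were at 1143, 3229 and 705, so with mouse 7 included the groups overlapped.

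The mean Krt7 intensity was 577 ± 287 (SD, n = 9) in the metastases and 1281 ± 175 (SD, n = 4) in the matched primary tumors, a log2 difference of −1.43 (SE 0.56, 95% interval −2.67 to −0.19, adjusted p = 0.356 by limma). The log2 ratio of a metastasis to its own primary tumor was lowest in the heart (−3.58) and highest in the liver of mouse 1 (−0.31). Within mouse 1 the subcutaneous metastasis (−1.80) stood apart from the inguinal (−0.47) and liver (−0.31) ones, and within mouse 3 the heart metastasis stood apart from the lymph node (−0.55) and subcutaneous (−0.49) ones. The mean ratios of mice 1 to 4 were −0.86, −2.06, −1.54 and −1.47. Each of the 9 metastases was below its own primary tumor at 3.6% of all probe sets, and Krt7 was the 1 keratin probe set of 11 among them. Over all 16 tumors the difference was −1.44 (SE 0.43, adjusted p = 0.124 by limma), and −1.28 (adjusted p = 0.210 by limma) without the tumor of the female mouse 6, the highest of the 16 for Krt7.

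**Figure D1:**
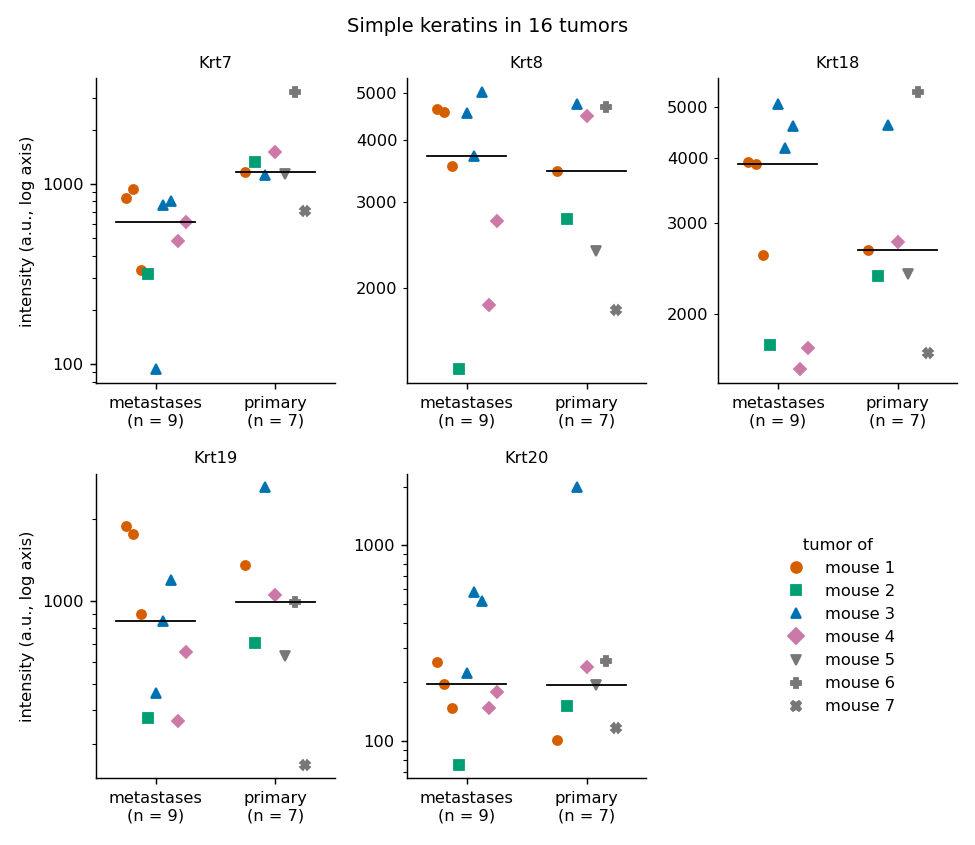
Intensity (arbitrary units, log axis) of the 5 simple keratins, each at its brightest probe set, in the 9 metastases (left) and 7 primary tumors (right), with 1 symbol per tumor by mouse and a line at the group median. For Krt7 the metastases reach up to 941 and the matched primary tumors start at 1122, but the unmatched one of mouse 7 is at 705. For the other 4 genes the metastases overlap the matched primary tumors too.

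The pair Krt8 and Krt18 showed no called difference between metastases and primary tumors, and the log2 ratios differed by mouse. Krt8 (probe set 1420647_a_at) was at 4637, 4578 and 3548 in the inguinal, liver and subcutaneous metastases of mouse 1, 1365 in the metastasis of mouse 2, 4546, 3718 and 5012 in the heart, lymph node and subcutaneous metastases of mouse 3, and 1850.3 and 2738 in the nodal and pleural metastases of mouse 4. In mice 1 to 7 the primary tumors were at 3469, 2763, 4740.2, 4486, 2382, 4673 and 1801. Of the metastases, 4 lay above and 5 below their own primary tumor. The metastases of mouse 1 lay above it (log2 ratios 0.42, 0.40 and 0.03), those of mouse 3 close to it (−0.06, −0.35 and 0.08) and those of mice 2 and 4 below it (−1.02, −1.28 and −0.71).

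For Krt8 the log2 difference was −0.39 (SE 0.22, 95% interval −0.89 to 0.11, adjusted p = 0.569 by limma), so a fall by up to 0.89 and a small rise both lie within the interval. Its other 2 probe sets, whose suffix marks probes that may match further transcripts, gave −0.40 and −0.45. The 3 probe sets ordered the tumors almost alike, with Pearson correlations of 0.99 over the 16 tumors for each pair. Over all 16 tumors the Krt8 difference was −0.13 (SE 0.26, adjusted p = 0.894 by limma).

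Krt18 followed the same mice. It was at 3919, 3893 and 2597 in the inguinal, liver and subcutaneous metastases of mouse 1, 1740.0 in that of mouse 2, 5069, 4176 and 4599 in the heart, lymph node and subcutaneous metastases of mouse 3, and 1564 and 1723 in the nodal and pleural metastases of mouse 4. The primary tumors of mice 1 to 7 were at 2658, 2363, 4617, 2752, 2393, 5345 and 1684. The groups overlapped over nearly their whole range, with the metastases of mouse 3 among the highest tumors and those of mice 2 and 4 among the lowest. The log2 difference was −0.17 (SE 0.19, 95% interval −0.58 to 0.24, adjusted p = 0.796 by limma) and 3 of 9 metastases lay above their own primary tumor.

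Krt8 and Krt18 varied together. Over the 16 tumors their Pearson correlation was 0.88 and their Spearman correlation 0.89, and Krt18 was the gene most like Krt8 of all genes whose mean was above 24.3. Within the 9 metastases the Pearson correlation was 0.88, and within the 7 primary tumors it was 0.87. These correlations are descriptions, since tumors of 1 mouse share their source and each tumor is 1 array. The log2 ratio to the primary tumor differed between Krt8 and Krt18 by −0.58 to 0.09 per metastasis.

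Krt7 had a lower ratio than either gene of this pair in every metastasis, but by little in some. Its log2 ratio to the primary tumor was below that of Krt8 in 9 of 9 metastases, by a median of −0.71 (range −3.52 to −0.19), and below that of Krt18 in 9 of 9, by a median of −0.86 (range −3.72 to −0.40). In the lymph node metastases of mice 3 and 4 the ratio of Krt7 differed from that of Krt8 by −0.19 and −0.36. There Krt8 itself differed from Krt18 by −0.21 and −0.46, so Krt7 did not stand apart from the pair. In the heart metastasis, where Krt7 was at 93.6, Krt8 was at 4546 and Krt18 at 5069, both within the range of the primary tumors. The Pearson correlation of Krt7 with Krt8 was 0.17 over the 9 metastases and 0.68 over the 7 primary tumors, and that of Krt7 with Krt18 was −0.01 over the metastases and 0.76 over the primary tumors. The heart metastasis was the lowest for Krt7 and the highest metastasis for Krt18, so the correlations over the 9 metastases depend much on that 1 tumor. They were not computed without it. The difference between the correlations of metastases and primary tumors was not tested.

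**Figure D2:**
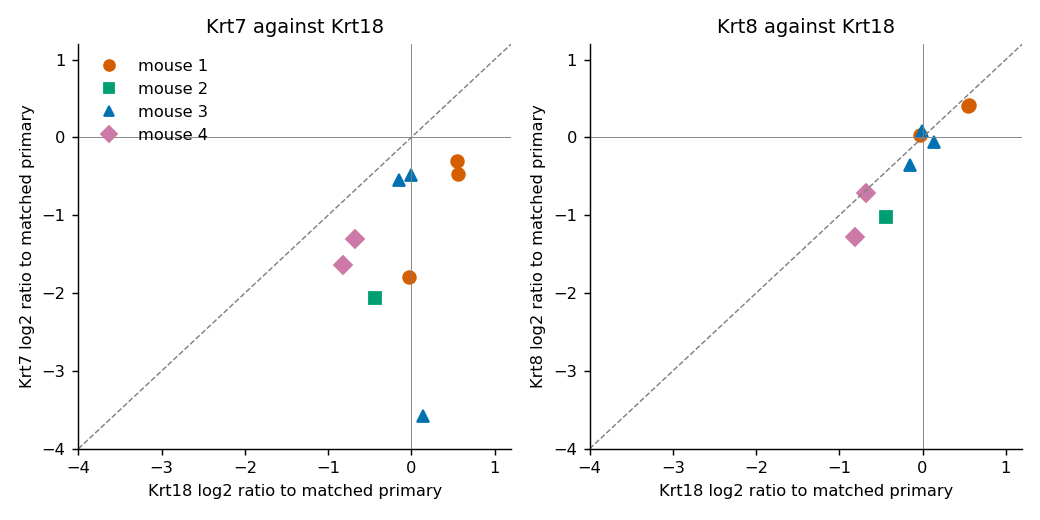
Log2 ratio of each of the 9 metastases to the primary tumor of its mouse, for Krt7 (left panel, vertical axis) and Krt8 (right panel, vertical axis) against Krt18 (horizontal axes), coloured by mouse, with a dashed line where both ratios are equal. All 9 points lie under the line for Krt7, with ratios that differ by −3.72 to −0.40 log2 units, and close to it for Krt8.

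The gene most like Krt7 over the 16 tumors was Epcam, the epithelial cell adhesion molecule, with a Pearson correlation of 0.94 (Spearman 0.92), followed by Pgap2, a protein of GPI anchor maturation, at 0.91 and Wfdc2, a secreted epithelial protein, at 0.87. Epcam was at 406, 265 and 191 in the inguinal, liver and subcutaneous metastases of mouse 1, 117 in that of mouse 2, 41.7, 347 and 436 in the heart, lymph node and subcutaneous metastases of mouse 3, and 184 and 328 in the nodal and pleural metastases of mouse 4. In mice 1 to 7 the primary tumors were at 1218, 1055, 934, 1054, 944, 1564 and 545. The heart metastasis was the lowest tumor for Epcam as for Krt7, and the primary tumor of mouse 6 the highest. Epcam had a log2 difference of −2.38 (adjusted p = 0.131 by limma) over the matched tumors and passed over all 16 (−2.28, adjusted p = 0.0142 by limma).

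Krt19 was lower in 7 of 9 metastases than in the matched primary tumor, the exceptions being 2 metastases of mouse 1. It was at 1893, 1762 and 899 in the inguinal, liver and subcutaneous metastases of mouse 1, 375 in that of mouse 2, 461, 846 and 1196 in the heart, lymph node and subcutaneous metastases of mouse 3, and 364 and 651 in the nodal and pleural metastases of mouse 4. The primary tumors of mice 1 to 7 were at 1359, 704, 2619, 1056, 630.1, 999 and 252. The inguinal and liver metastases of mouse 1 were thus above their primary tumor, and the groups overlapped.

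The log2 difference of Krt19 was −0.92 (SE 0.36, 95% interval −1.72 to −0.12, adjusted p = 0.361 by limma) over the matched tumors, and −0.39 (SE 0.41, adjusted p = 0.775 by limma) over all 16, in which the primary tumor of mouse 7 was the lowest of all. Without mouse 3 the matched difference was −0.59 (adjusted p = 0.633 by limma). Krt19 varied with Krt8 over the 16 tumors at a Pearson correlation of 0.79. The log2 ratio of Krt18 lay above that of Krt19 in 9 of 9 metastases, by 0.02 to 2.64. The genes most like Krt19 were Pabpc1, the poly(A)-binding protein, Tmem98 and Cd2ap, an adaptor protein at cell junctions, at 0.86, 0.86 and 0.85.

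Krt20 levels split by mouse. The metastases of mouse 3 were at 222 in the heart, 581 in the lymph node and 520.0 under the skin, against 1977 in the primary tumor of that mouse, the highest of all. In mouse 1 the metastases were at 254 (inguinal), 197 (liver) and 148 (subcutaneous), all above their primary tumor at 102. The metastasis of mouse 2 was at 76.1 and those of mouse 4 at 148 (lymph node) and 178 (pleura), against 152 and 240.2 in their own primary tumors. The primary tumors of mice 5, 6 and 7 were at 195, 258 and 117. Outside mouse 3 the highest of the 12 tumors was at 258.

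The log2 difference of Krt20 was −0.71 (SE 0.46, 95% interval −1.73 to 0.31, adjusted p = 0.623 by limma), and over all 16 tumors it was −0.33 (SE 0.47, adjusted p = 0.839 by limma). The mean ratios of mice 1 to 4 were 0.94, −1.0, −2.28 and −0.56. Without the primary tumor of mouse 3 the difference over the remaining 15 tumors was 0.23 (adjusted p = 0.841 by limma), so its sign rested on that tumor. Of the 12 gastric and intestinal genes, 7 were highest among the primary tumors in that of mouse 3 and 5 in another mouse, and 4 (Lgals4, Tff1, Cdh17 and Gkn1, named after their values were seen) were highest there of all 16 tumors. Lgals4, a galectin of the gut lining, was at 1885 there, against 99.2 to 540 in the other 6 primary tumors. Tff1, a secreted peptide of the gastric mucosa, was at 4150.2 there and at 614 to 1179 in the others, and Cdh17, an intestinal cadherin, was at 333 there and at 17.8 to 32.1 in the others. Cdh17 was also above the rest in the metastases of mouse 3, at 164, 216 and 203 in the heart, lymph node and subcutaneous tumors, against 13 to 40.0 in the other 6 metastases. Tff1 was not, at 646, 800 and 688 in those 3 metastases and 685 to 1800 in the other 6. Lgals4 was lowest of all metastases in the heart, at 57.9, and highest in the lymph node and subcutaneous ones of mouse 3, at 437 and 427. The summed intensity of the 12 genes was 1622, 2436 and 2215 in the metastases of mouse 3, under the 3600 to 10145 of the other 6 metastases. These sums depend much on Gkn2, which ranged from 250 to 8025 in the metastases and was highest in the liver metastasis of mouse 2. The part of the 12 genes in the Krt20 values was not tested.

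Of the 12 listed gastric and intestinal genes, 8 were lower and 4 higher in the metastases, with a median log2 difference of −0.40 and none called. The genes most like Krt20 over the 16 tumors were Gipc2, a PDZ-domain adaptor, and Myo10, an unconventional myosin of filopodia, both at a Pearson correlation of 0.89, and the transcription factor Yy1 at 0.86.

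**Figure D3:**
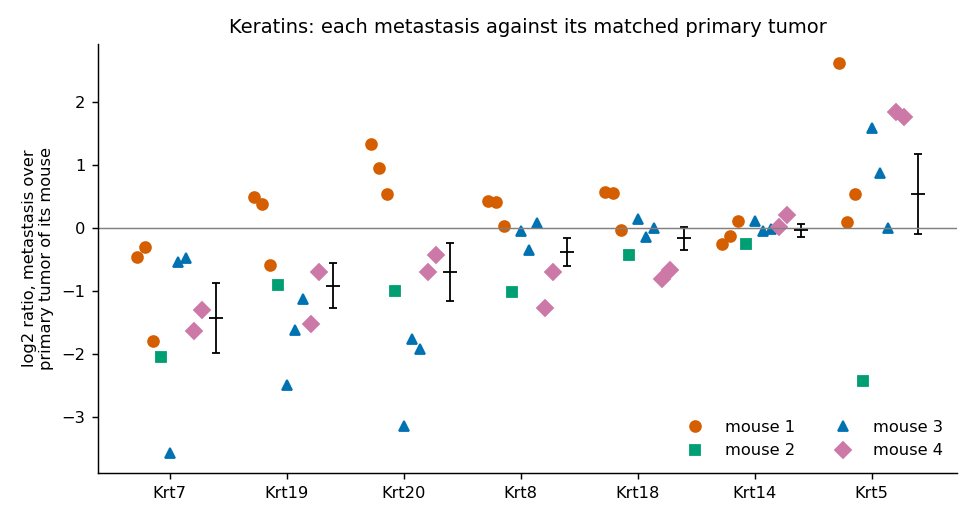
Log2 ratio of each of the 9 metastases to the primary tumor of its mouse for the 7 keratins, each at its brightest probe set, with 1 symbol per metastasis by mouse, and beside them the limma difference with its SE (black). All 9 ratios are below 0 for Krt7, from −3.58 to −0.31, while those of Krt20 split by mouse and those of Krt5 come from values near the floor of 1.

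Krt5 was dim in all tumors, as were 2 of the 3 Krt14 probe sets in most. Krt5 was at 6.08, 1.06 and 1.45 in the inguinal, liver and subcutaneous metastases of mouse 1, 1 in that of mouse 2, 2.99, 1.83 and 1 in the heart, lymph node and subcutaneous metastases of mouse 3, and 3.58 and 3.38 in the nodal and pleural metastases of mouse 4. In mice 1 to 7 the primary tumors were at 1, 5.39, 1, 1, 4.92, 1 and 14.0. All 16 values were under 24.3, so the table holds no Krt5 level that stands above its dimmest 25%. The log2 difference of 0.53 (SE 0.63, 95% interval −0.89 to 1.94, adjusted p = 0.818 by limma) comes from these values and is 0 with a floor at 24.3.

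The 3 probe sets of Krt14 did not vary together. The brightest, 1455573_at, was nearly even. It was at 76.3, 83.5 and 98.3 in the inguinal, liver and subcutaneous metastases of mouse 1, 87.3 in that of mouse 2, 84.6, 75.4 and 77.0 in the heart, lymph node and subcutaneous metastases of mouse 3, and 91.3 and 105 in the nodal and pleural metastases of mouse 4. The primary tumors of mice 1 to 7 were at 91.4, 105, 78.3, 90.6, 137, 92.4 and 112, and the groups overlapped. The log2 difference was −0.05 (SE 0.11, 95% interval −0.28 to 0.19, adjusted p = 0.914 by limma).

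At the dimmest Krt14 probe set, 1460347_at, the metastases were at 2.19, 2.59 and 4.98 in mouse 1, 6.57 in mouse 2, 4.58, 5.38 and 1 in mouse 3, and 3.79 and 5.78 in mouse 4, with sites in the same order as above. In mice 1 to 7 the primary tumors were at 1, 3.39, 1, 1, 1, 1 and 1.4. Of the metastases 8 lay above their own primary tumor, and the subcutaneous metastasis of mouse 3 was at 1 like its primary tumor. The log2 difference was 1.62 (SE 0.44, adjusted p = 0.182 by limma) over the matched tumors and 1.59 (SE 0.36, adjusted p = 0.0407 by limma) over all 16. This was the 1 call among the 11 keratin probe sets, and it rests on values between 1 and 6.57, all under 24.3. With values under 24.3 raised to it the difference was 0. The call was lost without the primary tumor of mouse 1, 3, 4, 5, 6 or 7 (adjusted p between 0.0667 and 0.1104 by limma) and kept without that of mouse 2 (0.0335). It was also lost without the random mouse block (0.0762).

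The remaining Krt14 probe set, 1423935_x_at, ran the other way. It ranged over 6.15 to 17.2 in the 9 metastases, median 10.6, and over 2.05 to 29.1 in the 7 primary tumors, median 20.7, and 14 of 16 values were under 24.3. Its log2 difference was −0.56 (SE 0.47, adjusted p = 0.716 by limma). Over the 16 tumors the Pearson correlations among the 3 Krt14 probe sets were −0.28, −0.31 and −0.11. A probe set that the annotation gives to both Krt14 and Krt17, and that was therefore no member, was at 126 to 179 in the metastases and 141 to 184 in the primary tumors, with a log2 difference of −0.09 (SE 0.12, adjusted p = 0.828 by limma).

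**Figure D4:**
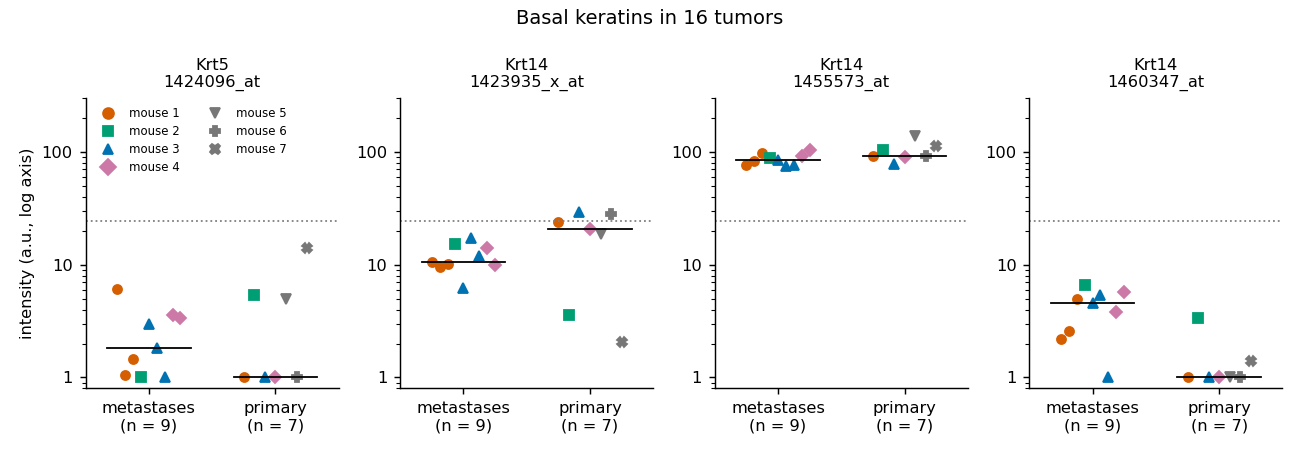
Intensity (arbitrary units, log axis, values under 1 drawn at 1) of Krt5 and of the 3 Krt14 probe sets in the 9 metastases (left) and 7 primary tumors (right) of each panel, with 1 symbol per tumor by mouse, a line at the group median and a dotted line at 24.3, the 25th percentile of all values. Krt5 and Krt14 1460347_at lie under the dotted line in all 16 tumors, and the 3 Krt14 probe sets do not agree in direction.

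Set side by side, the simple keratins had differences below 0 and the basal keratins gave no common direction. All 5 simple keratins had a log2 difference below 0, as had 6423 of all 12393 genes, and none was called. Their median of −0.71, against −0.01 over all genes, is the value of Krt20. Over all 16 tumors the median was −0.33, again that of Krt20, whose sign there rested on the primary tumor of mouse 3. Krt8 was at −0.13 and Krt18 at −0.05 in that fit. Per metastasis, the median log2 ratio of the 5 simple keratins minus the mean ratio of the 2 basal keratins had a median of −0.69 (SD 1.23, n = 9) and was below 0 in 7 of 9. The lowest value was −3.35, in the heart of mouse 3, and the highest 0.42, in the liver of mouse 1, but single values rest on Krt5 near the floor. With a floor at 24.3 the basal ratios lay between −0.13 and 0.10 and the median was −0.52, with the inguinal metastasis at 0.61 in place of −0.69 and the liver metastasis of mouse 2 at −0.87 in place of 0.35. No p-value was computed for this score.

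Of the 11 keratin probe sets, 0 were called by limma (adjusted p under 0.05) in the matched comparison, against 0.354% of all probe sets, in either direction. At an unadjusted p under 0.05, 2 of the 11 were lower (Krt7 and Krt19) where 7.1% of all probe sets were, and 1 was higher (Krt14 1460347_at) where 4.28% were. Over all 16 tumors 1 of 11 passed the adjusted threshold, against 1.24% of all probe sets. With 1 mean ratio per mouse, 0 of the 22626 probe sets passed.

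The counts of this and the following lists are to be read beside those of all 12393 genes, each at its brightest probe set. Over the matched tumors 6423 of these were lower and 5937 higher, with 44 called lower and 2 called higher. Over all 16 tumors 138 were called lower and 45 higher. Among 16 other epithelial keratins measured of 20 listed, 10 were lower and 5 higher, with a median of −0.04. Krt80 was the 1 that passed a test. Krt80 is a type II keratin made in many epithelia. Its intensity ranged from 14.6 to 42.9 in the 9 metastases, median 25, and from 61.4 to 105 in the 7 primary tumors, median 67.0, so the groups did not overlap. All 9 metastases lay under all 7 primary tumors at 0.318% of all probe sets. Krt80 fell by 1.51 on the log2 scale over all 16 tumors (adjusted p = 0.00146 by limma), and over the matched tumors the difference was −1.53 (SE 0.28, adjusted p = 0.0586 by limma). Krt77 (0.44) and Krt79 (−0.23) had an unadjusted p under 0.05 only. Of the 16, 10 averaged over 24.3, among them Krt6a (114) and Krt16 (55.7) of layered epithelia, and 6 under it, among them Krt17, Krt4 and Krt15. Of the 16 hair and hair follicle keratins measured of 23 listed, 14 were higher and 2 lower, with a median of 0.13 and none called; the largest at an unadjusted p under 0.05 was Krt72 (0.31).

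Keratin linkers and partners, which include proteins of desmosomes, cytolinkers and 14-3-3 proteins, were lower in 11 of 14 measured genes of 15 listed, with a median of −0.24. Pkp3, a plakophilin of desmosomes, fell by 0.71 on the log2 scale over all 16 tumors (adjusted p = 0.00603 by limma). Eppk1, the keratin-binding epiplakin, was at −0.91 and Sfn, which encodes 14-3-3 sigma and averaged 3.61 in the metastases and 9.31 in the matched primary tumors, was at −2.03, and neither passed. Of 13 other intermediate filament genes 9 were higher, with a median of 0.06 and none called, and Vim, the filament of mesenchymal cells, was at 0.98 (adjusted p = 0.242 by limma).

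**Figure D5:**
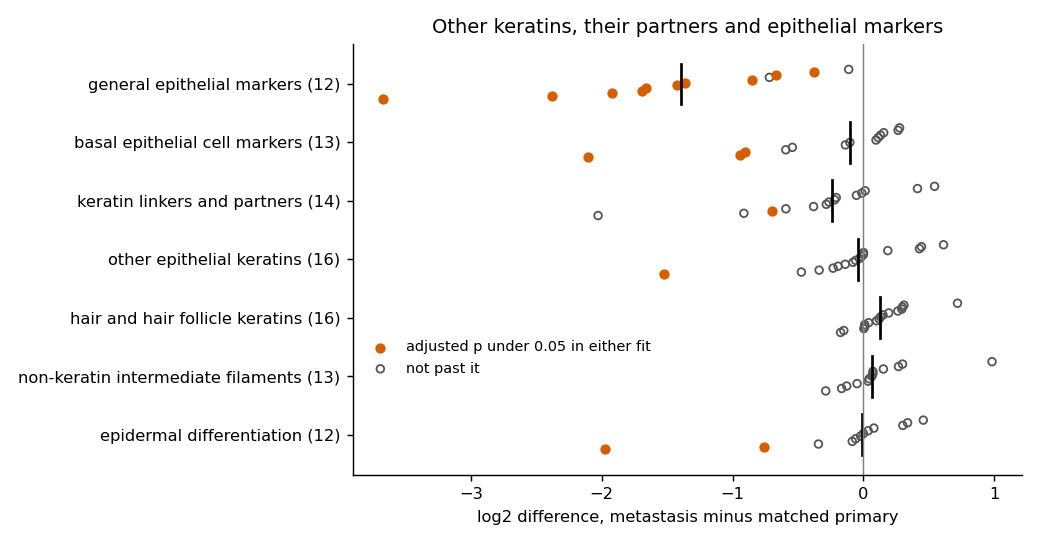
Log2 difference between metastases and matched primary tumors for each gene of 7 lists (number of genes in brackets), with a bar at the list median and filled symbols for genes with an adjusted p under 0.05 by limma in either fit. The general epithelial markers all lie below 0 with a median of −1.40, while the other keratins centre on −0.04 with Krt80 apart at −1.53.

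Markers of epithelial cells were lower in the same tumors as Krt7. Of all 12393 genes, 44 were called lower over the matched tumors and 138 over all 16. All 12 general epithelial markers were lower in the metastases, with a median of −1.40, and 3 passed over the matched tumors and 10 over all 16. Their summed intensity ranged from 1884 to 4444 in the metastases and from 6275 to 6948 in the matched primary tumors (4903 to 6948 over all 7), with the lowest sum in the heart metastasis. Spint2, a protease inhibitor of epithelia, fell by 0.85 (adjusted p = 0.0228 by limma), the membrane protease St14 fell by 1.69 (adjusted p = 0.0243 by limma) and the membrane protease Prss8 fell by 1.92 (adjusted p = 0.0376 by limma), all over the matched tumors. The summed intensity of the 5 simple keratins, by contrast, overlapped between metastases (3874 to 12127) and matched primary tumors (7310 to 15076). That sum is mostly Krt8 and Krt18, with means of 3519 and 3193 over the 16 tumors against 962 for Krt7, so it says little of Krt7. The part of epithelial cell content in the Krt7 difference was not tested.

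Normal lung epithelium also makes simple keratins. Of 9 alveolar type 2 markers measured, 9 were lower (median −2.27, 3 called over all 16), with sums of 1177 to 28507 in the metastases and 18013 to 41351 in the matched primary tumors. All 6 alveolar type 1 markers were lower (median −1.03, none called), with sums of 1186 to 5264 in the metastases and 2551 to 7114 in the matched primary tumors, and 5 of 6 airway markers were lower (median −1.56, 2 called over the matched tumors), with sums of 438 to 807 in the metastases and 1593 to 5920 in the matched primary tumors. The heart metastasis, lowest for Krt7, was also lowest for the type 1, type 2 and airway sums, and its sum of 13 striated muscle markers, 2938, was the highest of the 16 tumors (524 in the primary tumor of mouse 3). Their part in the Krt7 and Krt19 differences was not tested.

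Markers of basal cells and of skin were read beside the basal keratins. Of 13 basal cell markers 7 were lower and 6 higher (median −0.10), and the 3 that passed in either fit were lower. Lamb3, which encodes a laminin chain of basement membranes, fell by 2.11 (adjusted p = 0.0219 by limma) over the matched tumors, and Lama3, which also encodes a laminin chain, and Pdpn, which alveolar type 1 cells also make, passed over all 16 (adjusted p = 0.0473 and 0.0498 by limma). Of 12 genes of epidermal differentiation 6 were higher and 6 lower (median −0.01), with the keratinocyte gene Dmkn (−1.97) and the transglutaminase Tgm1 (−0.76) called lower over all 16 (adjusted p = 0.0248 and 0.0126 by limma). In the subcutaneous metastases of mice 1 and 3 the median log2 ratio of the epidermal genes was −0.12 and −0.05, and in the inguinal one it was 0.03.

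Marker lists of the tissues around the metastases were also read. Of 8 hepatocyte genes 8 were higher (median 0.46, none called), but this came from mice 1 and 2. Their median ratios were 3.69 and 1.95 in the liver metastases of mice 1 and 2 and 1.60 in the inguinal metastasis. In the subcutaneous metastasis of mouse 1 the median ratio was 0.33. It lay between −0.82 and −0.13 in the metastases of mice 3 and 4. Hepatocytes make Krt8 and Krt18. Of 4 bile duct genes measured of 8 listed, 3 were lower and 1 higher (median −0.12, none called), with Sox9 at 0.93 (higher in 9 of 9 metastases, adjusted p = 0.106 by limma). The summed intensity of the hepatocyte genes was 8098, 10427 and 6242 in the inguinal, liver and subcutaneous metastases of mouse 1 and 5751 in the metastasis of mouse 2, against 483 to 2122 in the other 5 metastases and 585 to 1668 in the 7 primary tumors. Of these 4 metastases 2 lay in the liver, and the inguinal and subcutaneous ones of mouse 1 did not. Whether liver cells or tumor cells made the hepatocyte RNA was not tested, nor was its part in the keratin values.

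Krt14 at its brightest probe set was most like Lpin1, an enzyme of lipid synthesis, Adam19, a membrane metalloprotease, and Chia1, a chitinase, with Pearson correlations of 0.91, 0.89 and 0.86. Krt18 was most like Map2k1, the kinase MEK1, at 0.93, and Ier3 and Lrrn1, both at 0.91. Krt8, after Krt18, was most like Lmcd1 and Tspan12, both at 0.87. For Krt5 the highest correlations were 0.76 for Ndufa3 and 0.75 for both Cga and Ergic2, with values of Krt5 that were all under 24.3.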

How the data were processed

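Tumors were dissected from the adjacent tissue, and biotin-labelled cRNA from total RNA was hybridized to 1 Affymetrix Mouse 430A 2.0 array per tumor. The authors normalized arrays to an invariant set and modelled perfect match minus mismatch signals in dChip, and the deposited intensity values are linear. The table holds 22690 probe sets, of which 64 controls were left out. Of the 22626 others, 20380 carry 1 gene symbol, 691 several and 1555 none. The keratins and the 19 gene lists were chosen with earlier results of these data known.

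Values under 1 were set to 1 and log2 values were fitted in limma 3.58.1 (R 4.3.3) with empirical Bayes variances and Benjamini-Hochberg adjustment over 22626 probe sets. The matched fit used 9 metastases and 4 primary tumors with the mouse as a fixed block, since the labels give the mouse of each tumor (8 residual degrees of freedom). The fit of all 16 tumors used duplicateCorrelation (consensus correlation 0.238). A gene with several probe sets was taken at the one of highest mean. Of the other lists, genes were picked by rule if they passed an adjusted p of 0.05 in either fit. Those among the 3 largest differences of their list at an unadjusted p under 0.05 were also picked. Only some of the picked genes are named in the text, and strong calls are among those left out. An example is the airway marker Scgb1a1, at −5.63 (adjusted p = 0.000256 by limma) over the matched tumors. Some genes outside the rule are named for their levels. For each keratin the 3 genes of highest correlation were named. The labels give no batch. The number of arrays limits the precision. The fit was tested on simulated data. Alternatives were floors at the 10th (5.54) and 25th (24.3) percentiles, dim probe sets left out, quantile and median scaling, fits without the block, 1 ratio per mouse, the methods' t-test, a robust prior with a variance trend, and leaving out single mice, metastases or primary tumors. Sequences are from RefSeq (GRCm38.p6). Gene symbols were updated through gene IDs, of which 20351 matched.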

Additional observations from a re-analysis of the deposited data

Results flagged for a closer look

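Among 22 groups of tumors (11 keratin probe sets in the metastases and in the primary tumors), 3 held a tumor far from the others. Chance flags about 1 group in 20 where values are independent and normally spread. That does not hold here, since metastases share mice and probe sets share genes, so the count is no measure of an excess. The heart metastasis of mouse 3 was the lowest metastasis for Krt7, at 93.6, and its gap to the next one took 0.530 of the group's log2 range. Without it the matched difference was −1.16 (adjusted p = 0.166 by limma). The primary tumor of mouse 3 was the highest primary tumor for Krt20, at 1977, with a gap of 0.686 of the range. The primary tumor of mouse 2 was the highest for Krt14 1460347_at, at 3.39, with a gap of 0.727 of a range that lies at the floor of the values. Of the 7 primary tumors 5 were at 1 there.

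The log2 ratio of Krt8 to the matched primary tumor was below 0 in both mediastinal lymph node metastases and above 0 in both subcutaneous ones. The means differed by −0.87 at probe set 1420647_a_at and by −0.89 at 1435989_x_at. At 1423691_x_at the ratios were −0.36 and −1.27 in the lymph nodes and 0.27 and −0.09 under the skin, so that 1 subcutaneous value fell on the other side of 0. The lymph node metastases came from mice 3 and 4 and the subcutaneous ones from mice 1 and 3, so the site is mixed with the mouse. Within mouse 3, which had both, the ratios at 1420647_a_at were −0.35 in the lymph node and 0.08 under the skin. The difference between these sites was not tested.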

How the results depend on the processing

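Krt7 kept its sign under all 23 alternatives to the matched fit and all 9 over all 16 tumors, and never passed (adjusted p between 0.0749 and 0.612 by limma or the methods' t-test). The number of keratin probe sets called, 0 in the matched fit, was 1 by the methods' t-test and 1 over all 16 tumors, and 0 to 1 when any mouse or metastasis was dropped. The 1 call over all 16 tumors became 0 without the replicate block and 0 with a floor at the 25th percentile, and lay between 0 and 1 with a primary tumor left out. Each such call was Krt14 1460347_at. Over all probe sets, 80 calls became 236 with dim probe sets left out, 43 without the replicate block, 0 with 1 ratio per mouse, 884 by the methods' t-test, 224 with a variance trend and robust prior, 280 over all 16 tumors, and 2 to 72 with a mouse or metastasis left out. The 280 calls over all 16 became 156 without the replicate block and 113 to 332 with a primary tumor left out. Signs turned only for differences that did not pass. In the matched fit, dropping a mouse or metastasis, Krt14 1455573_at ranged from −0.0974 to 0.00402 and Krt18 from −0.38 to 0.0223. Over all 16 tumors without the block, Krt8 was at 0.000592 and 0.0281 (1423691_x_at), Krt18 at 0.0361 and Krt5 at −0.19. With a primary tumor left out, Krt18 ranged from −0.148 to 0.0705, Krt20 from −0.61 to 0.23, Krt5 from −0.27 to 0.33 and Krt8 1423691_x_at from −0.22 to 0.00297. The causes were not tested. Levels under 24.3 limit what can be said of Krt5 and of 2 Krt14 probe sets. That mark is a percentile of the table and no limit of detection, so values above it may still be background. The brightest Krt14 probe set, at 75.4 to 137, lay near or above the array medians of 75 to 85.5.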

Other observations

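The remaining marker lists bear on other cells that the tumors could hold. Of 5 mesothelial markers measured of 8 listed, 3 were lower and 2 higher (median −0.07, none called), with Slc39a8, a zinc transporter, at −1.55 (adjusted p = 0.301 by limma). The highest mesothelial sums were those of mouse 3, at 1109, 993 and 1487 in its heart, nodal and subcutaneous metastases, against 1434 in its primary tumor and 155 to 381 in the other 6 metastases. These sums were mostly Msln, mesothelin, at 968, 748 and 1268 in those metastases, against 1108 in the primary tumor of mouse 3. They therefore rest on 1 gene and say little of the other mesothelial markers. Mesothelial cells also make simple keratins. Whether the tumors of mouse 3 held such cells was not tested, nor was their part in its keratin values. Of 7 thymic epithelial markers measured of 8 listed, 4 were lower and 3 higher (median −0.02), and Cldn3, a claudin that is found in many epithelia, fell by 1.14 on the log2 scale (adjusted p = 0.0236 by limma), while the dim Ly75 was at −0.85. Of 13 striated muscle genes 9 were higher and 4 lower (median 0.51, none called, and 0 at an unadjusted p under 0.05). Of 10 leukocyte genes measured of 11 listed, 6 were lower and 4 higher (median −0.12, none called), and Cd68, a macrophage gene, was at −0.80 (adjusted p = 0.192 by limma).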
